A study of Mus musculus with 44 samples.

Results

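Mice that lack the H+/K+ATPase beta subunit were compared with wild type mice, in mucosa of the gastric corpus, while the gastrin receptor was blocked in both. The comparison holds 20 of the 44 libraries of the study: 11 from knockout mice given netazepide (KO/NTZ) and 9 from wild type mice given netazepide (WT/NTZ), chosen by the genotype and treatment in the labels. All were female mice of 13 months, and each library came from a frozen biopsy of the ventral corpus mucosa. The knockout line began on a mixed background and was back-crossed repeatedly onto BalbC before the study. Netazepide (NTZ, called YF in the labels) is a competitive antagonist of the gastrin/CCKB receptor and was injected subcutaneously in polyethylene glycol. The other groups received polyethylene glycol alone and were 13 knockout libraries (KO/PEG) and 11 wild type libraries (WT/PEG), which serve here to show where the genotype effect under NTZ differed. The knockout lacks the beta subunit in every cell from birth, so its effect on the parietal cell and the long anacidity that follows cannot be told apart. The labels give the animals by number only, and p-values measure the spread between these libraries. A pair of WT/PEG libraries carries the same number, and the KO/PEG libraries outnumber the KO/PEG mice in the study's methods. Another number, 110, stands on 1 KO/PEG library and 1 KO/NTZ library. Some libraries may therefore come from 1 animal, and this caution includes that KO/NTZ library.

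The oxyntic gland of the corpus holds parietal cells, which acidify the stomach with the H+/K+ATPase, chief cells, which store pepsinogen, mucous neck cells, surface mucous cells and endocrine cells. Gastrin from the antrum acts on the CCKB receptor of the enterochromaffin-like (ECL) cell, which then releases histamine, and acid in turn restrains gastrin. Without acid gastrin rises, and in mice the corpus glands take on mucous cells that express trefoil factor 2, named spasmolytic polypeptide-expressing metaplasia (SPEM). The comparison therefore asks which differences between knockout and wild type mucosa are present when the gastrin receptor is blocked in both.

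The 20 libraries held between 6065084 and 20654692 estimated counts. A signal of 3 counts, the smallest considered, corresponded to between 0.146 and 0.501 CPM, the count scaled to the size of the library. Such floors cover counting error only. No pair of libraries of a group agreed within sampling noise. The WT/NTZ libraries labelled WT_86_WT_YF and WT_118_WT_YF stood apart: the summed level of the interferon-stimulated list was 1214 and 1373 CPM there and at most 265.1 CPM in the other 7, so results that rest on this pair are given with and without it. Mitochondrially encoded transcripts made up 1.88% to 7.04% of the counts in KO/NTZ libraries and 5.83% to 11.6% in WT/NTZ libraries. A length slope per library also separated the groups. It is the slope, on log2 transcript length, of log2 CPM relative to each gene's mean over all libraries of the study. Only the more abundant genes entered it, and its sign is relative to the whole series. Values ran from -0.454 to -0.0567 in KO/NTZ and from 0.108 to 0.298 in WT/NTZ libraries. Because these slopes do not overlap, genotype and transcript length composition cannot be told apart in genes whose difference follows their length.

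Most of the transcriptome differed between KO/NTZ and WT/NTZ mucosa. Of 14902 genes tested, 10795 (72.4%) passed the threshold of 0.05 on the adjusted p (edgeR's quasi-likelihood test, Benjamini-Hochberg adjustment), 5309 (35.6%) higher and 5486 (36.8%) lower in KO/NTZ. More than 2-fold differences were found for 2069 genes that were higher and 2218 that were lower, and more than 8-fold differences for 200 and 221. The ranges of the 2 groups of libraries did not overlap for 4015 genes (26.9%), of which 2086 (14%) were higher and 1929 (12.9%) lower in KO/NTZ. Since a called gene is the usual case here, the count of a gene list is read against these shares. Genotype held 51.6% of the variance of log2 CPM among the 20 libraries (exact one-sided permutation test over 167960 splits, p = 5.95e-06, the smallest they can give). The median SD of log2 CPM between libraries was 0.385 in KO/NTZ and 0.249 in WT/NTZ, and 10786 genes (72.4%) varied more in KO/NTZ. Under scaling by library totals alone, 9966 genes passed, 60.7% of them higher in place of 49.2%, and the median log2 fold change of all genes was 0.13 in place of -0.03.

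The targeted gene set the groups apart in every library. Atp4b (chr8:13386205-13396825, minus strand, GRCm38), which encodes the deleted beta subunit, ranged from 2146 to 5095 CPM with a median of 3679 in WT/NTZ and from 4.21 to 40.1 CPM with a median of 7.60 in KO/NTZ, a log2 fold change of -8.17 (SE 0.40, adjusted p = 2.51e-20). No library went against its label. Its partner Atp4a, the catalytic alpha subunit that carries out proton transport, ranged from 3763 to 9977 CPM in WT/NTZ (median 6875) and from 1920 to 4595 CPM in KO/NTZ (median 3036). Atp4a was lower by a log2 fold change of -1.10 (SE 0.18, adjusted p = 1.91e-06) with overlapping groups, and 9 of the 11 KO/NTZ libraries lay below all WT/NTZ libraries. Both subunits were abundant in WT/NTZ, as corpus mucosa requires, and gastrin itself, an antral transcript, did not pass the filter on low counts.

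All 19 parietal cell genes tested were called, 18 lower and 1 higher in KO/NTZ, with a median log2 fold change of -1.93 beside -0.03 for all genes. For 13 of the 18 the groups did not overlap. In bulk tissue fewer cells of a type and less RNA per cell cannot be told apart. Hrh2, the histamine H2 receptor through which ECL cells drive acid secretion, was at 8.66 to 27.6 CPM in WT/NTZ and 1.10 to 3.79 CPM in KO/NTZ (log2 fold change -3.23, SE 0.24). Kcnj16, an inwardly rectifying potassium channel, fell from a median of 317 to 22.8 CPM (-3.72, SE 0.21), and Slc26a7, an anion exchanger of the parietal cell, from 51.8 to 2.57 CPM (-3.52, SE 0.33). Esrrg, a nuclear receptor that drives oxidative metabolism, fell from 213 to 13.6 CPM (-3.33, SE 0.34). In each of these 4 genes the 11 KO/NTZ libraries lay below the 9 WT/NTZ libraries. Kcne2, which recycles potassium at the secretory membrane (-1.64, SE 0.20), the chloride transporter Slc26a9 (-2.03, SE 0.19) and the chloride channel gene Clic6 (-1.93, SE 0.21) were also lower without overlap. The exception was Car2, the carbonic anhydrase that supplies protons and is not limited to parietal cells, which ranged from 1191 to 1641 CPM in WT/NTZ and 1227 to 2366 CPM in KO/NTZ (0.42, SE 0.12, adjusted p = 0.00222).

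Chief cell genes were lower as well. Of 9 tested, 7 fell and 2 rose, with a median log2 fold change of -1.60. Pgc, pepsinogen C, ranged from 58315 to 183469 CPM (median 144740) in WT/NTZ and from 2603 to 18178 CPM (median 6680) in KO/NTZ, a log2 fold change of -4.03 (SE 0.44, adjusted p = 4.46e-10) without overlap. The lowest WT/NTZ value was that of WT_118_WT_YF, and the next was 130520 CPM. Gif, gastric intrinsic factor, was at 3401 to 6940 CPM in WT/NTZ and 51.8 to 2332 CPM in KO/NTZ (-2.74, SE 0.56), and Bhlha15, the transcription factor MIST1 of mature zymogenic cells, at 49.0 to 94.4 and 7.61 to 43.0 CPM (-1.60, SE 0.26), both without overlap. Chia1, the acidic chitinase, was at 9243 to 51123 CPM in WT/NTZ and 19.2 to 11150 CPM in KO/NTZ (-3.02, SE 0.93), so KO/NTZ libraries differed among themselves far more than WT/NTZ libraries. Pga5, a pepsinogen A, went the other way, from 59.97 to 227 CPM in WT/NTZ to 253 to 379 CPM in KO/NTZ (1.26, SE 0.44, adjusted p = 0.00946).

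**Figure D1:**
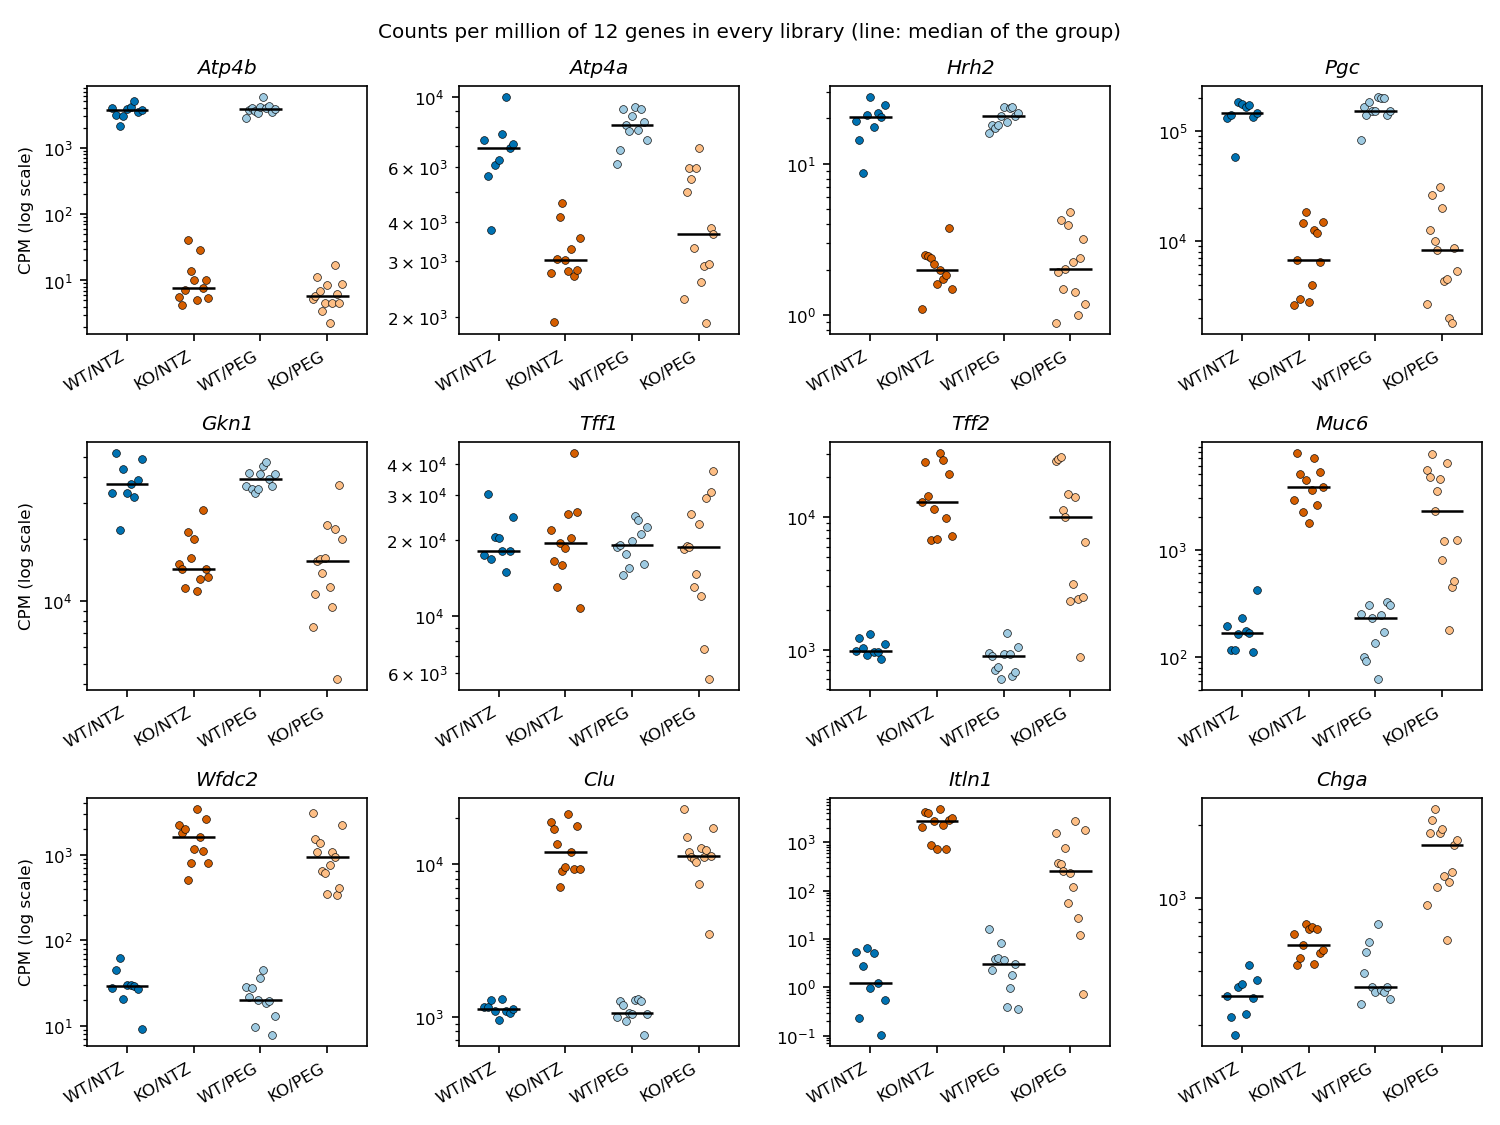
Each point is the CPM (log axis) of 1 of 12 genes in 1 library, in the WT/NTZ, KO/NTZ, WT/PEG and KO/PEG groups, and the line is the median. Atp4b, Hrh2 and Pgc lie lower and Tff2, Muc6, Wfdc2, Clu and Itln1 higher in all 11 KO/NTZ libraries than in any WT/NTZ library, Tff1 overlaps fully, and Chga lies closer between genotypes under NTZ than under PEG.

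Surface mucous cell genes changed less. Of 11 tested, 6 fell, 1 rose and 4 did not pass, with a median of -0.51. The gastrokines Gkn1 and Gkn2, secreted by the surface epithelium, had log2 fold changes of -1.22 (SE 0.23) and -1.27 (SE 0.25). Muc5ac, the gel-forming surface mucin, was at 2249 to 9410 CPM in WT/NTZ and 219 to 3463 CPM in KO/NTZ (-1.65, SE 0.44, adjusted p = 0.000902). Tff1, the surface trefoil factor, had medians of 18121 CPM in WT/NTZ and 19481 CPM in KO/NTZ (0.07, SE 0.24, adjusted p = 0.815). Muc1, a membrane mucin, was the member that rose, from 461 to 625 CPM to 733 to 1996 CPM without overlap (1.27, SE 0.16).

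Mucous neck cell genes were the highest of the gland lists. All 6 rose, with a median log2 fold change of 4.21, and 5 did not overlap. Tff2, trefoil factor 2, had a range of 851 to 1307 CPM in WT/NTZ (median 978) and 6709 to 30418 CPM in KO/NTZ (median 12956), a log2 fold change of 3.94 (SE 0.47, adjusted p = 2.61e-09). Muc6, the gland mucin, was at 112 to 425 CPM (median 170) and 1778 to 7809 CPM (median 3825), or 4.47 (SE 0.52). Gkn3, a gastrokine of mucous neck cells, rose from a median of 17.2 to 3747 CPM (6.87, SE 0.61), and Aqp5, a water channel, from 0.680 to 120.5 CPM (6.40, SE 0.69). In these 4 genes every KO/NTZ library exceeded every WT/NTZ library.

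Of 31 SPEM-related genes, 23 were higher, 1 was lower and 7 did not pass under NTZ, with a median of 1.34. Several were named by the study from these libraries, so this direction is not independent evidence. Clu, clusterin, ranged from 955 to 1301 CPM in WT/NTZ and 7041 to 21317 CPM in KO/NTZ (3.54, SE 0.23, adjusted p = 1.95e-16), with a KO/NTZ range that began far above the WT/NTZ range. Wfdc2, a whey acidic protein domain gene used as a SPEM marker, rose from a median of 29.4 to 1593 CPM (5.71, SE 0.46). Pigr, the receptor that carries immunoglobulin A across epithelium, rose from 28.1 to 2448 CPM (5.74, SE 0.61), Muc4, a membrane mucin, from 2.68 to 105 CPM (4.07, SE 0.51) and the chloride channel Cftr from 0.367 to 5.28 CPM (4.09, SE 0.52), all without overlap. Cd44, a hyaluronan receptor, had medians of 17.6 and 19.7 CPM (0.17, SE 0.22, adjusted p = 0.491).

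Intestinal epithelial genes were mostly higher, with 7 of 11 tested rising and 1 falling. Spink4, a protease inhibitor of intestinal goblet cells, rose from a median of 25.4 to 1501 CPM (5.58, SE 0.44) and the galectin Lgals4 from 104 to 590 CPM (2.37, SE 0.22), both without overlap. Dmbt1, a mucosal scavenger protein, rose from 116 to 948 CPM (2.69, SE 0.46), with 10 of 11 KO/NTZ libraries above all WT/NTZ libraries, and Vil1, the brush border protein villin, from 13.2 to 67.0 CPM (1.69, SE 0.26). Gpa33, an intestinal cell surface antigen, was at 25.7 to 49.3 CPM in KO/NTZ and 0.616 to 70.8 CPM in WT/NTZ, so its groups overlapped fully (1.43, SE 0.49).

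Among the endocrine cells of the corpus, the ECL cell carries the gastrin receptor. Of 9 ECL cell genes, 4 rose, 3 fell and 2 did not pass. The share called, 77.8%, was near the 72.4% of all genes, of which 35.6% were higher and 36.8% lower. Chga, chromogranin A of the secretory granule, was at 273 to 530 CPM in WT/NTZ and 530 to 781 CPM in KO/NTZ (0.73, SE 0.17, adjusted p = 0.000184), with 10 of 11 KO/NTZ libraries above the WT/NTZ range. Cckbr, the gastrin receptor that NTZ blocks, was at 2.07 to 6.88 and 4.52 to 15.8 CPM (1.03, SE 0.23). Ddc, an aromatic amine decarboxylase, was higher as well (0.93, SE 0.19). Hdc, the enzyme that makes histamine, had medians of 15.03 and 15.15 CPM (0.17, SE 0.23, adjusted p = 0.504), and Chgb, chromogranin B, 25.9 and 24.8 CPM (-0.05, SE 0.18, adjusted p = 0.823). Slc18a2, the vesicular transporter VMAT2 that loads histamine, fell from 29.5 to 15.2 CPM (-0.79, SE 0.22), and Kcnma1, a potassium channel, from 3.604 to 0.468 CPM (-2.27, SE 0.46). No ECL cell gene separated the groups without overlap.

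Of 8 genes of other endocrine cells, 4 rose and none fell. Ghrl, ghrelin of the X/A-like cell, was at 1821 to 3212 CPM in WT/NTZ and 3430 to 5964 CPM in KO/NTZ without overlap (0.77, SE 0.15, adjusted p = 1.44e-05), and Mboat4, the acyltransferase that activates ghrelin, rose from a median of 4.57 to 7.82 CPM (0.93, SE 0.16). Pyy, peptide YY, rose from 0.692 to 4.18 CPM (2.62, SE 0.52). Sst, somatostatin of the D cell, was at 303 to 564 and 221 to 831 CPM (-0.23, SE 0.29, adjusted p = 0.486). Among 15 genes shared by endocrine cells, 8 fell and 2 rose, among them the prohormone convertase Pcsk2 (-1.06, SE 0.17), the granin Scg2 (-1.01, SE 0.23) and synaptophysin, Syp (-0.64, SE 0.12). Of 12 genes reported to respond to gastrin, 75% were called, near the 72.4% of all genes. Among these 12, 6 rose and 3 fell under the blocked receptor. Timp1, a metalloproteinase inhibitor (2.45, SE 0.36), the EGF receptor ligands Areg (1.59, SE 0.26) and Hbegf (0.96, SE 0.15) and the lectin Reg1 (0.88, SE 0.38, adjusted p = 0.0348) were among the former, and Serpinb2, a plasminogen activator inhibitor, among the latter (median 1.76 CPM in WT/NTZ and 0 CPM in KO/NTZ).

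The knockout effect under NTZ was set against that under PEG, which shares no library with it. KO/PEG and WT/PEG differed in 11142 genes (74.8%). Both comparisons called 9502 genes, 9464 in the same direction and 38 in opposite directions, so 88% of the genes called under NTZ and 85.3% of those called under PEG were common to both. Across the 14902 genes, which are not independent replicates, the log2 fold changes had a Pearson r of 0.874 and a Spearman rho of 0.903. The difference between the effects passed for 139 genes (0.933%), of which 108 (0.725%) were lower and 31 (0.208%) higher under NTZ. By limma voom the split was 13 lower and 12 higher, and by limma-trend 28 and 14. At an unadjusted p under 0.05 the number was 1718. Of the 139, 78 had estimates of opposite sign in the 2 comparisons, 31 were called in both with the smaller effect under NTZ and 5 with the larger. Without this pair of WT/NTZ libraries, 50 genes passed, and 43 of them were among the 139. With the WT/PEG pair of 1 number summed, 110 passed.

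**Figure D2:**
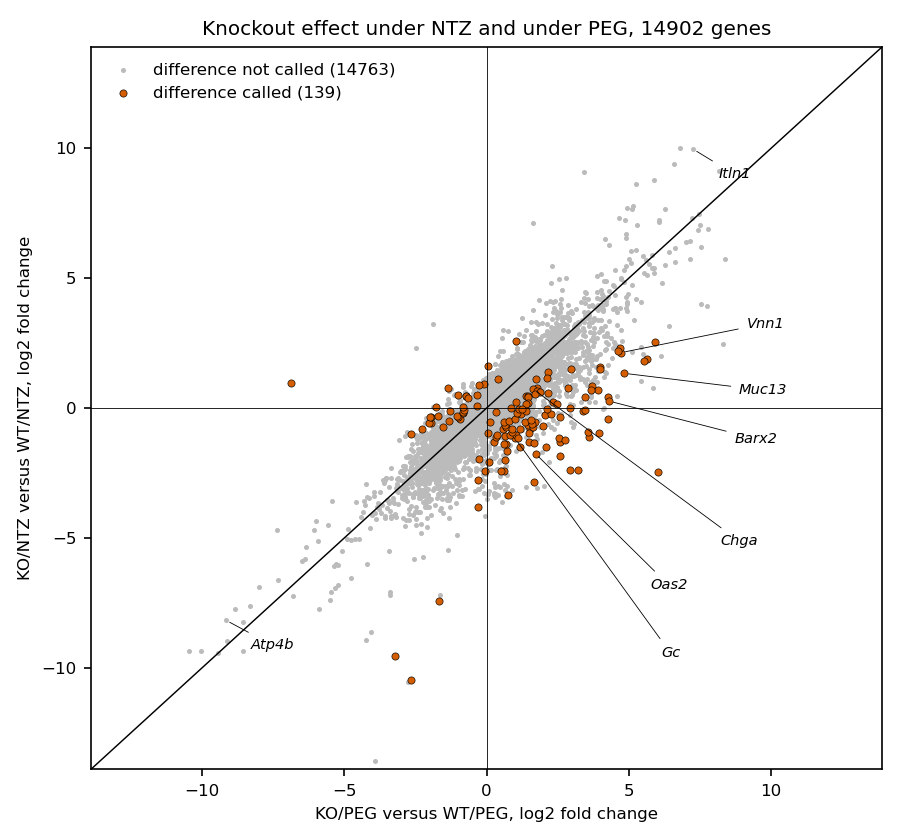
Each point is 1 of 14902 genes, with the log2 fold change of KO/PEG over WT/PEG on the x axis and of KO/NTZ over WT/NTZ on the y axis; the line marks equal effects. Most genes follow the line, and the 139 genes whose difference passed lie mostly below it, Chga, Muc13, Vnn1 and Barx2 among them.

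Endocrine genes stood among those 139. For Chga the knockout effect was 1.64 under PEG and 0.73 under NTZ, a difference of -0.92 (adjusted p = 0.0279), for Chgb 1.15 and -0.05, a difference of -1.20 (adjusted p = 0.0106), and for Hdc 1.40 and 0.17, a difference of -1.23 (adjusted p = 0.0362). Hdc was at 32.3 to 111.3 CPM in KO/PEG and 11.7 to 32.3 CPM in KO/NTZ libraries. The call for Chga and Hdc was lost without that pair of libraries (adjusted p = 0.051 and 0.065), with differences of -0.95 and -1.28. Pcsk1, a prohormone convertase, had effects of 0.36 and -1.04 (difference -1.40), and Pcsk1n, its inhibitor proSAAS, 0.04 and 1.61 (difference 1.57, adjusted p = 0.0440). For Cckbr, Slc18a2 and Sst the differences were -0.58, -0.51 and 0.77 and did not pass (adjusted p = 0.486, 0.545 and 0.461).

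Epithelial genes with a smaller knockout effect under NTZ included Muc13, a membrane mucin of the intestine, whose effect was 4.85 under PEG and 1.34 under NTZ (difference -3.51, adjusted p = 0.0106), and Muc5b, a gel-forming mucin, with 3.99 and 1.58 (difference -2.41, adjusted p = 0.0245). Neither passed without that pair of libraries (adjusted p = 0.068 and 0.071), with differences of -2.81 and -2.37. Vnn1, a pantetheinase, had effects of 4.74 and 2.14 (difference -2.60, adjusted p = 0.00161), and its median was 66.0 CPM in KO/PEG, 28.0 in KO/NTZ, 3.24 in WT/PEG and 4.15 in WT/NTZ. Barx2, a homeobox factor, had effects of 4.32 and 0.26 (difference -4.05). Its mean was 0.681 CPM in WT/PEG and 4.03 CPM in WT/NTZ. In knockouts it was 12.8 CPM with PEG and 4.90 CPM with NTZ. Fst, follistatin, which binds activin, had effects of 1.72 and -0.55 (difference -2.27). Gc, the vitamin D binding protein, was higher in KO/PEG than WT/PEG (effect 1.004) and lower in KO/NTZ than WT/NTZ (effect -1.17, difference -2.17, adjusted p = 0.000971). Tm4sf5, a tetraspan membrane protein, was at 15.5 to 40.2 CPM in WT/NTZ and 2.21 to 9.97 CPM in KO/NTZ without overlap (-1.97, SE 0.24), against -0.27 under PEG. Sprr2f, a cornified envelope protein, had effects of 2.58 and -1.29, Mmp12, a macrophage elastase, 2.15 and 0.59, and Ereg, the EGF receptor ligand epiregulin, -0.05 and -2.43. Without the pair of libraries the differences of Mmp12, Ereg and Pcsk1n did not pass, while those of Vnn1, Barx2, Fst, Gc, Tm4sf5, Sprr2f, Chgb and Pcsk1 did.

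Fewer genes had the higher effect under NTZ. Adgrb1, an adhesion receptor, was lower in KO/PEG (-1.34) and higher in KO/NTZ (0.77, difference 2.12, adjusted p = 0.00161). Ccnb2, cyclin B2 of the mitotic entry, had effects of -0.08 and 0.92 (difference 0.999, adjusted p = 0.0274), with 5.81 to 10.6 CPM in WT/NTZ and 11.02 to 24.4 CPM in KO/NTZ. Ppargc1b, a coactivator of mitochondrial genes, fell under both, with effects of -1.31 under PEG and -0.48 under NTZ (difference 0.83, adjusted p = 0.0186).

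Genes of energy metabolism moved in opposite directions by group. Of 26 fatty acid oxidation genes 16 fell and 5 rose, with a median of -0.57. The fatty acid transporter Cd36 fell from a median of 166 to 20.2 CPM (-2.83, SE 0.25), the lipase Lpl, which frees fatty acids from lipoproteins, from 411 to 48.1 CPM (-2.78, SE 0.17), and the nuclear receptor Ppara, which induces the pathway, from 3.73 to 0.312 CPM (-3.06, SE 0.34). The coactivator Ppargc1a (-2.04, SE 0.22) and Cpt1a, which admits fatty acids to mitochondria (-1.02, SE 0.14), were also lower, all 5 without overlap. Of 21 citric acid cycle genes 15 fell and 3 rose, 11 of the 15 without overlap. The changes were small: citrate synthase Cs -0.31 (SE 0.06), Ogdh -0.64 (SE 0.08) and Idh2 -1.31 (SE 0.16).

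All 13 mitochondrially encoded genes fell, with a median of -1.54, and mt-Co1, a subunit of cytochrome oxidase, was at 12021 to 24830 CPM in WT/NTZ and 936 to 9963 CPM in KO/NTZ (-1.85, SE 0.37). Nuclear genes of oxidative phosphorylation went the other way, 61 of 81 rising and 5 falling, with a median of 0.76. Ndufa2, a complex I subunit, was at 64.9 to 95.3 and 140 to 556 CPM (1.78, SE 0.28), whereas Atp5b, the catalytic subunit of ATP synthase, fell from 1635 to 2150 CPM to 997 to 1508 CPM (-0.51, SE 0.09). Of 78 cytosolic ribosomal protein genes 76 rose and none fell, with a median of 1.35, and 73 did not overlap. Rpl41 rose from a median of 606 to 2065 CPM (1.85, SE 0.27).

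These last groups are short transcripts, and the difference between the groups followed length. The 3726 genes with the shortest transcripts had a median log2 fold change of 0.66 and the 3726 with the longest -0.54, and Spearman's rho between length and log2 fold change was -0.46 across genes. Other coding genes of the length of the oxidative phosphorylation genes had a median of 0.72, close to their 0.76, and those of the length of the ribosomal protein genes 0.76, below their 1.35. With these length slopes as a term in the fit, 55 of the 81 oxidative phosphorylation genes were lower and none higher, 1 ribosomal protein gene was higher and 3 were lower, and 2 mitochondrially encoded genes were lower. With that term 3718 genes passed in all. Among genes named here, those not called with it included Gif, Chia1, Pga5, Muc5ac, Chga, Slc18a2, Kcnma1, Ghrl, Mboat4, Scg2, Timp1, Cpt1a, Calr, Canx, Cat, Nfe2l2, Cxcl12, Cxcl14, Cxcl17, Kit, Ltc4s, Myh11, Dcn, Sprr1a, Sox9, Lgr4, Bmpr1a, Nrg4, Cdk1, Birc5, Bub1, Tyms, Ndufa2, mt-Co1, Rpl41, Pcsk1n and Rpl19-ps11. Parietal cell genes then gave 15 lower and 1 higher, chief cell genes 5 lower and none higher, citric acid cycle genes 17 lower, fatty acid oxidation genes 14 lower, mucous neck cell genes 5 higher and SPEM-related genes 18 higher and 1 lower. Intestinal genes gave 4 higher and 1 lower, ECL cell genes 2 higher and none lower, genes of other endocrine cells 1 higher and 1 lower, shared endocrine genes none higher and 3 lower, and gastrin-responsive genes 4 higher and none lower. Oxidant defence genes gave 9 higher and 1 lower. The slopes of KO/PEG libraries, from -0.4195 to 0.251, overlap those of WT/PEG libraries, from 0.0759 to 0.396, but those of the NTZ groups do not, so under NTZ slope and genotype cannot be told apart.

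**Figure D3:**
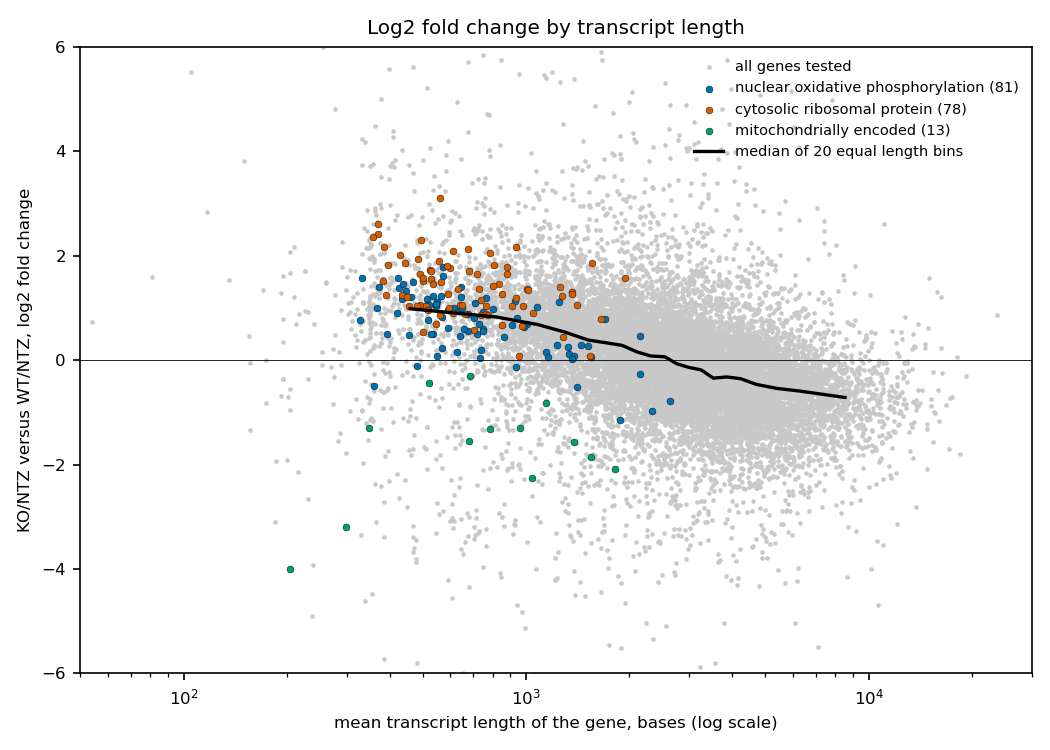
Each point is 1 gene, with its mean transcript length in bases (log axis) on the x axis and the log2 fold change of KO/NTZ over WT/NTZ on the y axis, and 71 genes lie outside the axes. The line, the median of 20 bins with equal numbers of genes, runs from 0.99 at the short end to -0.71 at the long end; nuclear oxidative phosphorylation genes scatter around it, ribosomal protein genes lie mostly above it and mitochondrially encoded genes below it.

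Genes of secretory protein folding and of oxidant defence were mostly higher. Of 24 endoplasmic reticulum folding genes, 13 rose and 6 fell. The chaperone Calr rose from a median of 724 to 1516 CPM (1.14, SE 0.17) and the disulfide isomerase Pdia6 from 230 to 581 CPM (1.24, SE 0.15), while the chaperone Canx fell from 342 to 165 CPM (-0.92, SE 0.16) and the stress sensor Atf6 from 52.6 to 37.4 CPM (-0.54, SE 0.07), all without overlap. With the length term 3 rose and 3 fell. Of 23 glutathione and oxidant defence genes, 14 rose and 3 fell. Gpx2, the gastrointestinal glutathione peroxidase, was at 72.8 to 131 CPM in WT/NTZ and 406 to 2864 CPM in KO/NTZ (3.62, SE 0.34), and Gstm1 (1.73, SE 0.13) and the peroxiredoxin Prdx1 (1.34, SE 0.15) were higher without overlap. Catalase, Cat (-1.39, SE 0.21), and Nfe2l2, the transcription factor NRF2 that induces many of these genes (-1.07, SE 0.18), were lower.

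Innate mucosal defence genes were mostly higher. Of 20 genes, 13 rose, 3 fell and 4 did not pass, with a median of 1.94. Itln1, the lectin intelectin 1 that binds microbial sugars, was at 0.104 to 6.41 CPM in WT/NTZ (median 1.23) and 722 to 4840 CPM in KO/NTZ (median 2717), a log2 fold change of 9.97 (SE 1.12, adjusted p = 6.21e-10). The oxidase Duox2 rose from a median of 25.04 to 226 CPM (3.04, SE 0.37) and its maturation factor Duoxa2 from 4.22 to 183 CPM (4.86, SE 0.48). Tlr2, a receptor for bacterial lipoproteins (3.16, SE 0.38), its co-receptor Cd14 (2.49, SE 0.22) and the antimicrobial lectin Reg3g (3.92, SE 0.69) rose too, and in all 6 the groups did not overlap. S100a9, a calprotectin subunit of neutrophils, had a median of 2.56 CPM in WT/NTZ and 0.309 CPM in KO/NTZ (-2.09, SE 0.79, adjusted p = 0.0178). Among 20 chemokine genes 9 rose and 3 fell, with the mucosal Cxcl17 (1.18, SE 0.15), Cxcl14 (1.42, SE 0.23) and Cxcl15 (2.48, SE 0.36) higher and Cxcl12, made by stromal cells, lower (-1.61, SE 0.24). With the length term 4 chemokine genes rose and 2 fell.

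Interferon-stimulated genes were lower in KO/NTZ, and this rested on 2 libraries. Of 23 tested, 16 fell, 1 rose and 6 did not pass, with a median of -1.30. Without this pair of WT/NTZ libraries, 10 rose and 3 fell. With the length term, in all libraries, 5 fell and none rose. Isg15, a ubiquitin-like modifier, was at 1.92 to 117.6 CPM in WT/NTZ (median 4.76) and 3.65 to 23.7 CPM in KO/NTZ (median 9.16), with a log2 fold change of -1.34 (SE 0.50, adjusted p = 0.0171) in all libraries and 1.08 (adjusted p = 0.00452) without the pair. Ifit1, which binds viral RNA, was at 1.12 to 63.4 and 0.851 to 7.11 CPM (-2.01, SE 0.53), or 0.38 without the pair (adjusted p = 0.344). Oas2, a sensor of double-stranded RNA, had a log2 fold change of -1.76, or 0.25 without the pair. Gbp2, a guanylate-binding protein, kept its direction and call, at 8.42 to 115 CPM in WT/NTZ and 1.12 to 8.82 CPM in KO/NTZ (-2.01, SE 0.36). In the test of the difference, 9 of the 23 had a lower knockout effect under NTZ than under PEG, where 12 rose and 1 fell, and none of the 23 did without the pair.

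The promoters of these genes are shown because the summed level of the list was high in the same 2 WT/NTZ libraries. Members did not all follow the sum, and Gbp2 was at 115 CPM in WT_118_WT_YF and 8.42 to 21.9 CPM in the others. How far the members moved together was not tested. The factors of the interferon response bind elements that repeat GAAA, and the pattern of GAAA, any 2 bases and GAAA was searched on both strands in the 250 bases before the start of each gene (RefSeq, GRCm38.p6). It was found for 9 of the 19 interferon-stimulated genes with a promoter in the table, and for 3.18% of 11129 tested genes, while none of the 6 MHC class II genes held it. A match describes letters, not a bound site, and its relation to the levels was not tested. Only promoters that hold the pattern are printed. Below, capitals mark the pattern or its reverse complement, which starts and ends with TTTC, and overlapping matches run together.
Ifit1 (chr19:34640639-34640888, plus strand): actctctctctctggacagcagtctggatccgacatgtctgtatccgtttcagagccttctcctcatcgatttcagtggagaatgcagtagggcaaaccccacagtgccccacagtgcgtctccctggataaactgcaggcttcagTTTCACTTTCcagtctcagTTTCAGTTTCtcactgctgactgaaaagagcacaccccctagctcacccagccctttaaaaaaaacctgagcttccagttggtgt
Ifit3 (chr19:34583279-34583528, plus strand): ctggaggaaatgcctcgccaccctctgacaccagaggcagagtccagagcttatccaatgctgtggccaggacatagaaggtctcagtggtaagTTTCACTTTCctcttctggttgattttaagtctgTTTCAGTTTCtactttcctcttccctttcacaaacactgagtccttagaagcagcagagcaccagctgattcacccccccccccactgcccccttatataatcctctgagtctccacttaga
Isg15 (chr4:156200819-156201068, minus strand): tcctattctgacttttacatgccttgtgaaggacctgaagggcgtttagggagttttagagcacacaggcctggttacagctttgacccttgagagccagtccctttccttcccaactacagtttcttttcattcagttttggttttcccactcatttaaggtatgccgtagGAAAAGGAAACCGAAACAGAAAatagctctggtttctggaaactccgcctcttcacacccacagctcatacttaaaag
Rsad2 (chr12:26456453-26456702, minus strand): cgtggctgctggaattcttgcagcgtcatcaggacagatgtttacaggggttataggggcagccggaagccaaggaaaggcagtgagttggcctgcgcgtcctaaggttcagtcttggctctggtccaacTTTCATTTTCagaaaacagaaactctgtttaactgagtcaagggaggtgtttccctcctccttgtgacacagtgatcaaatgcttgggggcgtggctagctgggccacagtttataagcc
Ifit1 and Ifit3 each held 2 matches on the opposite strand, Isg15 held 3 that overlap, and Rsad2, an antiviral radical enzyme, held 1.

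MHC class II genes and lymphocyte genes moved with the same library. In WT_118_WT_YF the summed level of the MHC class II list was 3722 CPM, against at most 359.3 CPM in the other 8 libraries and 437.1 to 896.7 CPM in KO/NTZ. Of 9 MHC class II genes, none rose and 1 fell, Ciita, the transactivator of the group (-2.11, SE 0.55). Without the pair that stood apart, 7 rose and none fell. T cell genes gave 1 higher and 1 lower of 11, and 4 higher and none lower without the pair. With the length term, in all libraries, no MHC class II or T cell gene was called. Plasma cell genes were higher with and without the pair, with 7 of 11 rising and none falling in all libraries and 8 rising without the pair. With the length term 5 plasma cell genes rose and 1 fell. Igkc, the kappa light chain constant region, was at 34.6 to 977 CPM in WT/NTZ and 603 to 2948 CPM in KO/NTZ (2.88, SE 0.49), Igha, the heavy chain of immunoglobulin A, at 36.7 to 1182 and 504 to 2608 CPM (2.54, SE 0.50), and Ighm at 2.87 to 84.4 and 46.5 to 642 CPM (3.72, SE 0.73). Jchain, which joins polymeric immunoglobulin A, rose from a median of 23.4 to 150 CPM (1.61, SE 0.45). The highest WT/NTZ values of Igkc, Igha and Jchain were those of WT_118_WT_YF.

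**Figure D4:**
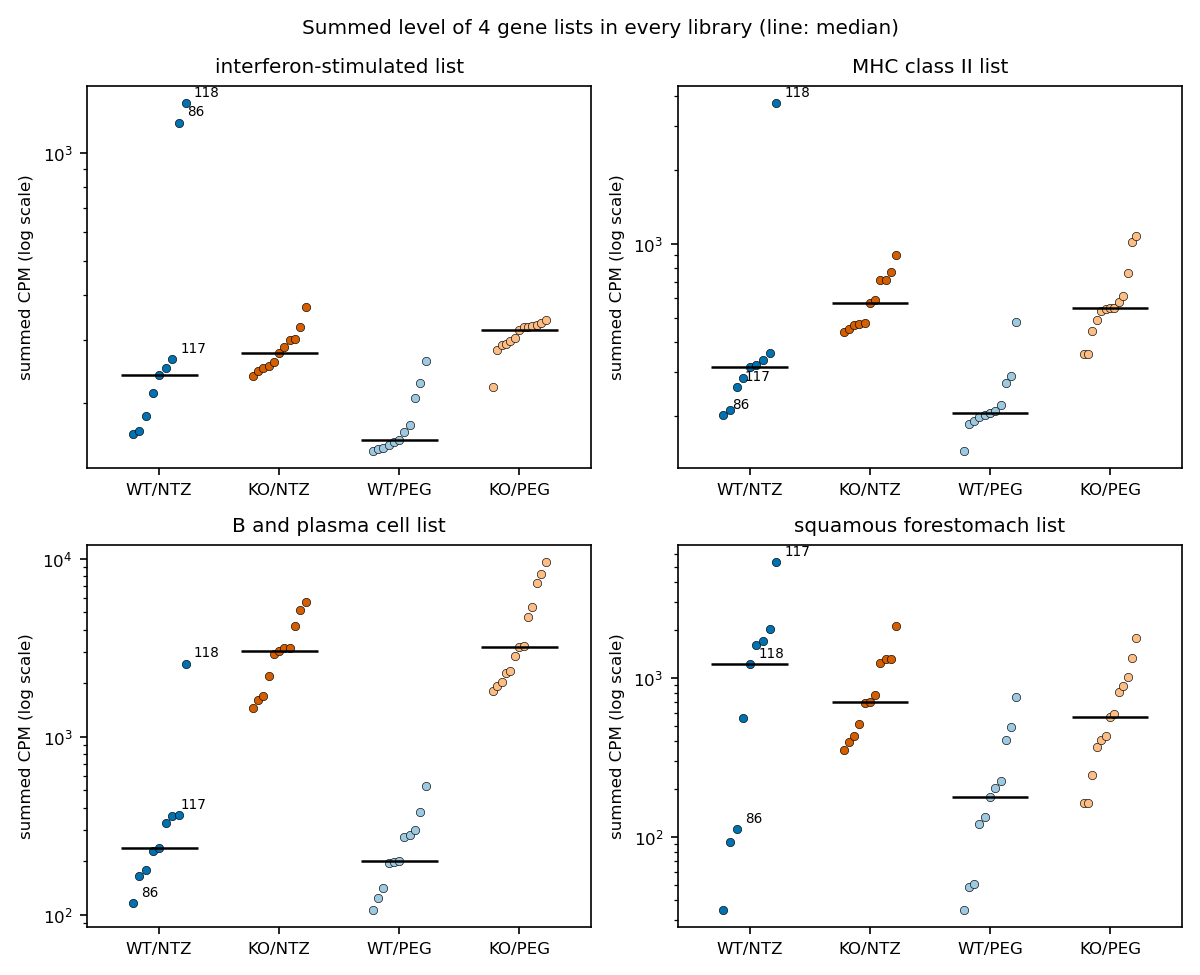
Each point is the summed CPM (log axis) of a gene list in 1 library of the WT/NTZ, KO/NTZ, WT/PEG and KO/PEG groups, the line is the median, and WT_86_WT_YF, WT_117_WT_YF and WT_118_WT_YF are marked by their numbers. WT_86_WT_YF and WT_118_WT_YF lie above all others in the interferon-stimulated list, WT_118_WT_YF in the MHC class II list, and WT_117_WT_YF has the highest squamous forestomach sum, 5329 CPM.

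Mast cell and tuft cell genes were mostly higher. Of 12 mast cell genes 8 rose and 1 fell. The share called, 75%, was near the 72.4% of all genes, of which 35.6% were higher and 36.8% lower. The mucosal mast cell proteases Mcpt1, from a median of 11.4 to 115 CPM (3.30, SE 0.43), and Mcpt2, from 18.8 to 81.8 CPM (2.11, SE 0.24), and the carboxypeptidase Cpa3 (1.29, SE 0.24) were higher without overlap, while Kit, a receptor that interstitial cells of Cajal also carry, fell (-1.44, SE 0.20). With the length term 4 mast cell genes rose and none fell. Of 12 genes of tuft cells, which sense lumenal signals and make leukotrienes, 11 rose and none fell, with a median of 1.88. The leukotriene genes Alox5ap (2.81, SE 0.34) and Ltc4s (2.87, SE 0.37), the channel Trpm5 (1.82, SE 0.33) and the kinase Dclk1 (0.94, SE 0.25) were among them, and with the length term 9 rose. Macrophage genes were divided, 5 higher and 4 lower of 13, and 7 and 3 without that pair of libraries. In all libraries 69.2% of them were called, near the share of all genes. With the length term 1 macrophage gene rose and none fell. Adgre1, the F4/80 antigen, was at 2.67 to 10.9 CPM in WT/NTZ and 0 to 4.17 CPM in KO/NTZ (-1.14, SE 0.34).

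**Figure D5:**
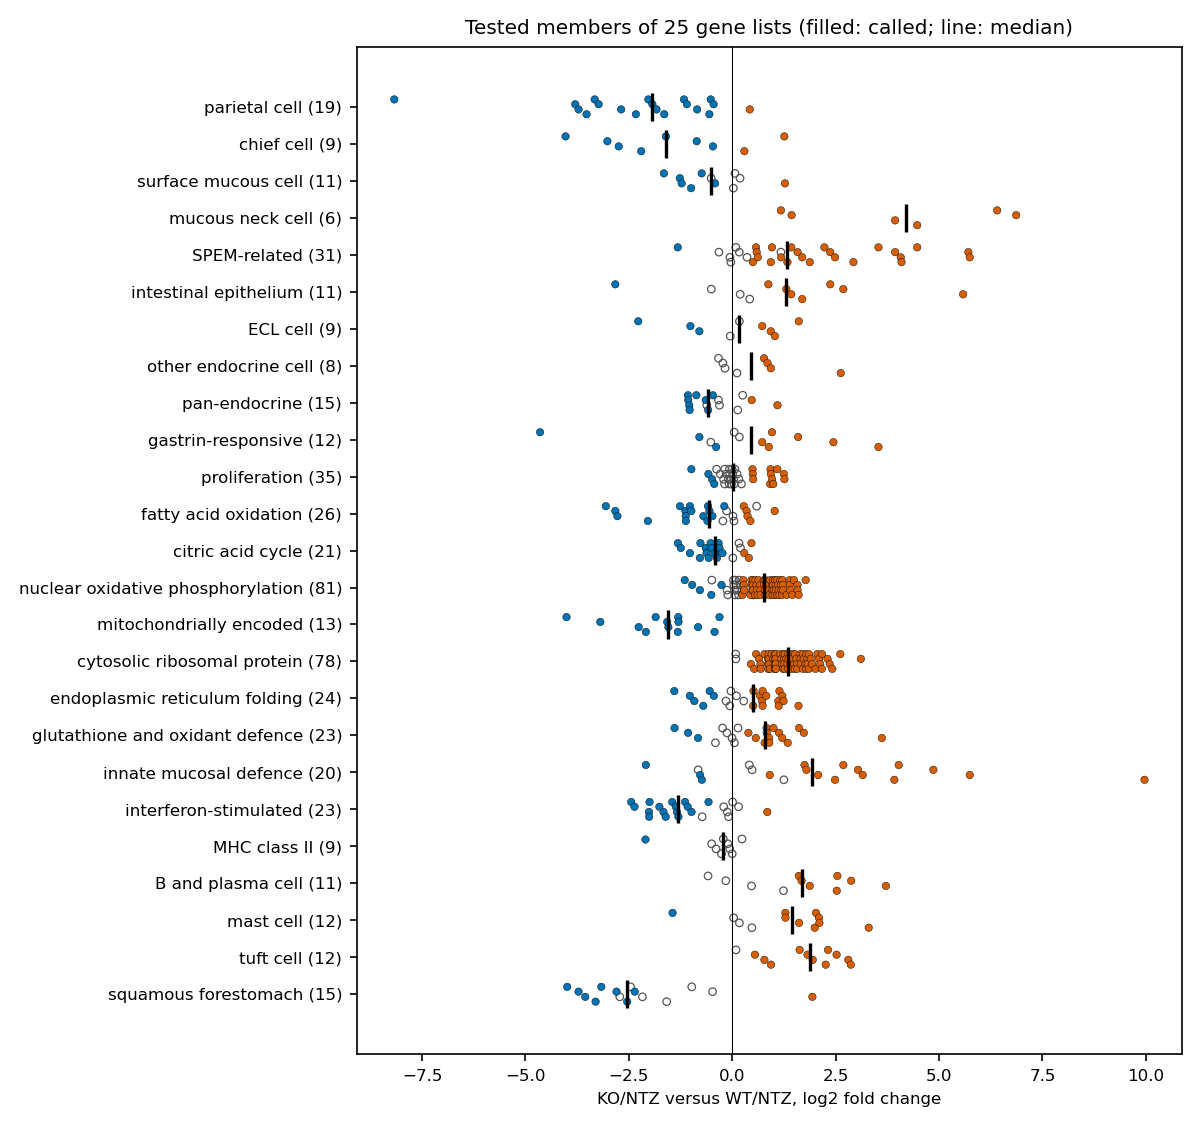
Each point is the log2 fold change of KO/NTZ over WT/NTZ of 1 tested gene in 1 of 25 lists (number tested in brackets), filled orange where it rose, filled blue where it fell and open where it did not pass; the bar is the median of the list. The medians of parietal and chief cell genes lie left of 0 and those of mucous neck, tuft cell and ribosomal protein genes right of it, while proliferation genes lie around 0.

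Proliferation genes lay on both sides of 0. Of 35, 11 rose, 4 fell and 20 did not pass, a share of calls below that of all genes, with a median of 0.01. Mki67, the antigen Ki-67 of cycling cells, had medians of 30.9 CPM in WT/NTZ and 32.3 CPM in KO/NTZ (0.00, SE 0.18, adjusted p = 0.997). Birc5, survivin (1.26, SE 0.22), the kinase Cdk1 (0.99, SE 0.21), Ccnb2 (0.92, SE 0.18) and thymidylate synthase Tyms (0.93, SE 0.13) rose, and the checkpoint kinase Bub1 fell (-0.99, SE 0.28). With the length term 2 rose and 5 fell. Of 11 EGF receptor family genes and ligands 5 rose and 4 fell, so 81.8% were called beside 72.4% of all genes. Egf itself fell from a median of 20.8 to 1.22 CPM without overlap (-3.73, SE 0.29), and the ERBB4 ligand Nrg4 rose from 0.411 to 3.07 CPM (2.83, SE 0.51).

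Of 21 transcription factors of gastric identity 8 rose and 8 fell, or 10 and 4 under scaling by library totals alone and 5 and 3 with the length term. In the main fit 76.2% of the 21 were called, near the 72.4% of all genes. Spdef, a factor of mucous secretory cells, rose from 28.7 to 41.8 CPM to 108 to 765 CPM (3.46, SE 0.42), and Sox9 (1.40, SE 0.23) and Sox2 (1.002, SE 0.19), factors of progenitor and foregut cells, were higher. Gata6 (-1.34, SE 0.16) and Foxa2 (-1.17, SE 0.16), endoderm factors, were lower without overlap. Of 19 Wnt, R-spondin and stem cell genes 4 rose and 7 fell, and of 22 Hedgehog and BMP genes 5 rose and 9 fell, or 5 and 5, and 7 and 6, under scaling by library totals alone. With the length term the counts were 2 and 1, and 3 and 1. Notum, a Wnt-inactivating enzyme and target, rose from a median of 0.135 to 2.45 CPM (3.64, SE 0.43) and Wnt11 from 4.44 to 40.2 CPM (2.55, SE 0.27), while the R-spondin receptor Lgr4 fell from 110 to 37.4 CPM (-1.30, SE 0.22). Ihh, a Hedgehog ligand of the surface epithelium, rose from 44.5 to 142 CPM (1.78, SE 0.19), and Id1, a BMP target, from 102 to 323 CPM (1.68, SE 0.20), whereas the BMP receptor Bmpr1a fell from 105 to 52.03 CPM (-1.09, SE 0.17).

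Some markers of tissues that a biopsy could carry along also differed. Of 15 squamous forestomach genes 8 fell and 1 rose. Their summed level was 34.59 to 5329 CPM in WT/NTZ and 353.6 to 2127 CPM in KO/NTZ, so WT/NTZ biopsies spanned the whole range. The median of this sum was 1223 CPM in WT/NTZ and 177.9 CPM in WT/PEG. In knockouts it was 700.4 CPM with NTZ and 570.5 CPM with PEG. Krt4, a squamous keratin, was at 0 to 1090 CPM in WT/NTZ and 0.155 to 108 CPM in KO/NTZ (-3.72, SE 1.203), while Sprr1a rose (1.94, SE 0.42). Within animals numbered below 100, which hold 5 WT/NTZ and 10 KO/NTZ libraries, 13 of them could be tested, of which none was lower and 1 was higher. Of 11 smooth muscle genes 4 fell and none rose, among them the myosin Myh11, from a median of 638 to 317 CPM (-1.16, SE 0.28). Of 10 fibroblast genes 6 fell and 2 rose (Dcn, decorin, -1.44, SE 0.31), of 8 endothelial genes 3 fell and 3 rose (Kdr, a VEGF receptor, -1.46, SE 0.19), and of 6 skeletal muscle genes 3 fell and 2 rose. The shares called were 80%, 75% and 83.3%, beside 72.4% of all genes, so the endothelial count is near that share. The pancreas list was nearly all Clps, colipase, at 15727 to 48514 CPM in WT/NTZ and 716 to 7210 CPM in KO/NTZ (-3.08, SE 0.46), and 4 of its 8 genes fell and 1, the elastase Cela1, rose (1.65, SE 0.24). Among WT/NTZ libraries its sum was lowest and highest where the chief cell sum was. These sums were 15800 and 76230 CPM in WT_118_WT_YF and 48670 and 242600 CPM in WT_171_WT_YF. Whether the list reflects pancreas carried along, and the source of Clps, was not tested. Of 11 liver-type plasma protein genes 2 rose and 2 fell, with angiotensinogen, Agt, higher without overlap (1.71, SE 0.19). With the length term no smooth muscle gene passed, 2 fibroblast genes rose and none fell, and 1 endothelial gene fell and none rose. Squamous genes then gave 3 lower, and pancreas genes 2 lower and 1 higher. The part of tissue composition in these results was not tested.

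The genes with the smallest p among those that did not overlap came from several of these groups and from none. On the lower side Vars2, a mitochondrial valyl-tRNA synthetase, was at 108 to 177 CPM in WT/NTZ and 12.4 to 21.1 CPM in KO/NTZ (-3.06, SE 0.13, adjusted p = 1.24e-21), and the galectin Lgals2 at 549 to 841 and 24.8 to 55.4 CPM (-4.21, SE 0.20), both ahead of Atp4b. The membrane glycoprotein Gpm6a (-5.88, SE 0.31), the tubulin Tuba3a (-6.09, SE 0.35), the membrane proteins Tmem50b (-1.87, SE 0.11) and Tmem151a (-2.50, SE 0.15) and the growth kinase Mtor (-1.51, SE 0.09) followed. On the higher side stood Fgl1, a fibrinogen-like secreted protein, from 0.207 to 1.11 CPM to 14.3 to 61.8 CPM (5.53, SE 0.32, adjusted p = 6.10e-18), and Sftpd, the collectin surfactant protein D, from 0.104 to 2.75 CPM to 49.4 to 146.997 CPM (6.88, SE 0.40). The scavenger receptor Scara3 (2.89, SE 0.18), the peptidoglycan recognition protein Pglyrp1 (3.39, SE 0.21), the transcriptional repressor Ripply3 (3.22, SE 0.21), Capsl (3.01, SE 0.20), the proton pump subunit Atp6v0d2 (5.32, SE 0.37), the sialyltransferase St3gal4 (4.19, SE 0.29) and Megf6 (3.29, SE 0.23) completed the 10 with Clu.

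Ranked by size of the fold change, Itln1 stood beside many predicted genes and pseudogenes. The chitinase-like lectin Chil4 was at 0.311 to 82.4 CPM in WT/NTZ and 1059 to 5221 CPM in KO/NTZ (7.32, SE 1.02), Wfdc18 rose from a median of 0.204 to 23.2 CPM (7.48, SE 0.80) and the secretoglobins Scgb2b15 and Scgb2b17 from 0 to 14.2 CPM and from 0.489 to 40.9 CPM. Pthlh, a parathyroid hormone-like ligand, fell from 13.2 to 0.213 CPM (-6.03, SE 0.53). Gm9765 and Gm15536 rose from medians of 0 CPM to 56.8 and 18.8 CPM, and Gm49369 fell from 28.8 to 0.141 CPM. Gm21972 was at 0 in all WT/NTZ libraries and reached 10.2 CPM on average in KO/NTZ, at least 334-fold higher against a floor of 3 counts over the group. Rpl10-ps1, Gm10052 and Gm13509 were at 0 in all 11 KO/NTZ libraries, with means of 116, 14.5 and 13.5 CPM in WT/NTZ, and thus at least 5640-fold, 703-fold and 657-fold lower. Pgk1-rs7, Rpl34-ps1 and Rpl14-ps1 were also lower and Rps25-ps1 and Rpl19-ps11 higher. Reads of these copies can be shared with their parent genes, so their values are uncertain.

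Of the genes called in opposite directions under NTZ and PEG, Gc, Oas2, Adgrb1 and the genes Ifi47 and Oasl2 of the interferon response have been described or follow Oas2. Ighv2-9 and Igkv6-17, immunoglobulin variable segments, reached 85.0 and 154 CPM in WT_118_WT_YF and at most 1.88 and 4.62 CPM in the other 8, and their log2 fold changes of -2.37 and -2.40 became 1.14 and 1.40 without that pair of libraries. Fabp5, a fatty acid binding protein of squamous epithelium, was at 113 to 685 CPM in WT/NTZ and 152 to 328 CPM in KO/NTZ (-0.82, SE 0.23) and was higher by 0.58 under PEG. Tmprss13, a membrane serine protease, had effects of -0.72 under NTZ and 0.70 under PEG. For Aif1l, an actin-binding protein, they were -1.06 and 1.03. The wild type groups also differed in these genes. Mean Aif1l was 0.861 CPM in WT/PEG but 4.05 CPM in WT/NTZ. In knockouts it was 1.77 CPM with PEG and 1.94 CPM with NTZ. From PEG to NTZ, mean Tmprss13 went from 3.80 to 7.25 CPM in wild type mice and from 6.12 to 4.34 CPM in knockouts. Mean Fabp5 went from 224 to 392 CPM and from 335 to 221 CPM. Whether squamous tissue in WT/NTZ biopsies contributed was not tested. Without the pair of libraries 22 genes were called in opposite directions in place of 38, and 16 were shared. Gm2026, a predicted gene that passed in the test of the difference, was at 0 to 1.59 CPM in WT/NTZ and 0 to 2.86 CPM in KO/NTZ.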

How the data were processed

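Poly-A RNA of each biopsy was sequenced as stranded single reads. The authors quantified transcripts with kallisto 0.42.4 on GRCm38 and deposited estimated counts for 94080 transcripts in 44 libraries. Here they were summed per gene (GENCODE M21), after 1796 transcripts with no gene name (0.367% to 1.33% of counts) were left out, and rounded. Of 31438 genes, 14902 passed filterByExpr (minimum count 10, minimum total 15). edgeR 4.0.16 (R 4.3.3) fitted all 4 groups with TMM scaling and no covariate, and quasi-likelihood tests were adjusted by Benjamini-Hochberg at 0.05. CPM are TMM-scaled, and log2 CPM used a prior count of 2. The study's sleuth test needs files not used here. DESeq2 1.42.0 and limma 3.58.1 were alternatives. Scripts were tested on simulated data in which a small part of the genes changed, in KO/NTZ alone. That setting does not test the scaling or the error rate where most genes differ, as here. Named genes were the 10 with the smallest p among genes without overlap and the 10 with the largest fold change at a mean of at least 10 CPM, per direction, the 10 with the smallest p for the difference, genes called in opposite directions, and examples from the lists. The members and lists were chosen with earlier results of these data known. Total counts per NTZ library, 6065084 to 20654692, set the precision. A few items are not reported here.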

Additional observations from a re-analysis of the deposited data

Results flagged for a closer look

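In WT/NTZ, the group of 9, the highest or lowest library stood far from the other 8 in 30 of 231 values tested, by the gap to the nearest library over the range of the group (above Dixon's 95% critical value). The rate of about 1 in 20 by chance holds for independent values chosen without these data. The values tested were related to each other and partly chosen from these data, so their count is not compared with that rate. Of the 30, 23 were in WT_118_WT_YF. Rps25-ps1, Gm15536 and Scgb2b15 were flagged with all other libraries at 0. The group of 11 KO/NTZ libraries was not tested this way.

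WT_118_WT_YF had the highest CPM, with the range of the other 8 in brackets, for Ciita 26.7 (others 0.673 to 1.56), Cxcl14 20.7 (others 6.69 to 9.73), Cxcl9 37.6 (others 1.56 to 4.69), Gbp2 115 (others 8.42 to 21.9), Igha 1182 (others 36.7 to 167), Ighv2-9 85.0 (others 0 to 1.88), Igkc 977 (others 34.6 to 144.4), Igkv6-17 154 (others 0.476 to 4.62), Jchain 271 (others 8.68 to 30.96) and Reg3g 3.54 (others 0 to 0.544). It also had the highest summed CPM of the chemokines list 326 (others 205 to 226), MHC class II list 3722 (others 202 to 359), macrophage list 509 (others 122 to 223), T cell list 53.3 (others 7.49 to 14.1) and B and plasma cell list 2580 (others 116 to 362). It had the lowest CPM for Cat 80.8 (others 142 to 222), Clps 15727 (others 34536 to 48514), Cxcl17 44.8 (others 59.7 to 77.6), Kcnj16 143.2 (others 298 to 469), Lpl 182 (others 325 to 528) and Pgc 58315 (others 130520 to 183470), and the lowest summed CPM of the chief cell list 76230 (others 153500 to 242600) and pancreas list 15800 (others 34680 to 48670).

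WT_103_WT_YF stood apart in Rps25-ps1 at the highest, 0.680 (others 0 to 0). WT_117_WT_YF stood apart in Rpl10-ps1 at the lowest, 20.3 (others 87.5 to 161). WT_93_WT_YF stood apart in Duox2 at the lowest, 1.85 (others 11.97 to 46.4), Duoxa2 at the lowest, 0 (others 1.75 to 16.2) and Scgb2b15 at the highest, 0.719 (others 0 to 0). WT_98_WT_YF stood apart in Gm15536 at the highest, 0.415 (others 0 to 0) and Ndufa2 at the lowest, 64.9 (others 79.9 to 95.3). 

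For 30 of the genes named, the knockout effect under NTZ minus that under PEG, on the log2 scale, passed the test of the difference. Endocrine genes gave Chga -0.92, Chgb -1.20, Hdc -1.23, Pcsk1 -1.40 and Pcsk1n 1.57. Epithelial and secreted genes gave Adgrb1 2.12, Aif1l -2.09, Barx2 -4.05, Ereg -2.37, Fabp5 -1.41, Fst -2.27, Gc -2.17, Mmp12 -1.55, Muc13 -3.51, Muc5b -2.41, Sprr2f -3.87, Tm4sf5 -1.70, Tmprss13 -1.42 and Vnn1 -2.60. Genes of the interferon response and immunoglobulin segments gave Isg15 -2.995, Ifi47 -2.70, Oas2 -3.48, Oasl2 -2.78, Ighv2-9 -5.28 and Igkv6-17 -5.62. Ccnb2 0.999 and Ppargc1b 0.83 were the mitotic cyclin and the mitochondrial coactivator. The differences of the predicted gene or pseudogene Gm13509 -7.81, Gm2026 7.84 and Pgk1-rs7 -6.32 rest on groups at or near 0 and depend on the prior count of the fit. Without WT/NTZ libraries WT_86_WT_YF and WT_118_WT_YF, the differences of Chga, Hdc, Pcsk1n, Ereg, Mmp12, Muc13, Muc5b, Isg15, Ifi47, Oas2, Oasl2, Ighv2-9 and Igkv6-17 did not pass and those of the others did.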

How the results depend on the processing

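No paired analysis was possible because KO/NTZ and WT/NTZ share no animal number. KO/NTZ against WT/NTZ gave 10795 genes, between 10560 and 10891 with 1 library left out, 10792 with RLE size factors, 10800 with DESeq2, 10754 without WT_86_WT_YF and WT_118_WT_YF (the pair) and 9347 within animals numbered below 100. Without a filter 11786 of 23566 genes passed, and transcripts gave 17213 of 30318. Only NTZ libraries were left out in turn, so the stability of KO/PEG against WT/PEG to its own libraries was not tested. The test of the difference was less stable. It gave 139 genes, 274 with DESeq2, 42 with limma-trend and 25 with limma voom, 50 without the pair, and from 92 (without WT_118_WT_YF) to 210 (without WT_93_WT_YF) with 1 NTZ library left out. Its higher share was 22.3%, 33.3% by limma-trend, 48% by voom and 6.67% under library totals alone, where KO/PEG against WT/PEG gave 71.1% higher in place of 50.8%. With the length slope as a covariate, chosen like the removal of the pair after the data were examined, the counts were 3718, 5197 for PEG and 428 for the difference. Within the NTZ groups the slope does not overlap, so slope and genotype cannot be told apart there. The variance share was 45.9% to 53.2% over the settings planned and 49.99% to 54.25% with 1 library left out.

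Log2 fold changes that reversed were, with the covariate, Rpl19-ps11 -3.18, Barx2 -0.056, Tff1 -1.12, Chgb 0.42, Slc18a2 0.20, Mki67 0.52, Pcsk1n -0.37, Myh11 0.23, mt-Co1 0.22, Rpl41 -0.12 and Ndufa2 -0.25. Without the pair they were Oas2 0.25, Ighv2-9 1.14, Oasl2 0.50, Igkv6-17 1.40, Ifi47 0.28, Isg15 1.08, Ifit1 0.38 and Mki67 0.14. DESeq2 gave Ighv2-9 1.13 and Igkv6-17 1.35, limma-trend Ighv2-9 0.34, Igkv6-17 0.33, Tff1 -0.00065 and Isg15 0.050, voom Ighv2-9 0.50, Igkv6-17 0.28 and Isg15 0.014, animals numbered below 100 Ighv2-9 1.01, Igkv6-17 1.2, Aif1l 0.16 and Mki67 0.12, and library totals alone Chgb 0.14 and Mki67 0.15. Mki67 0.0093 without a filter, 0.026 without number 110 and 0.0028 without mitochondrial genes stayed near 0. With 1 library left out, Chgb ranged from -0.10 to 0.024, Ighv2-9 from -2.55 to 1.30, Igkv6-17 from -2.92 to 1.48, Mki67 from -0.066 to 0.058 and Tff1 from -0.10 to 0.16. Causes other than the libraries named were not tested. Fits of the compared groups alone cannot estimate the difference of effects. They gave 10161 of 14001 genes for NTZ and 10543 of 14009 for PEG. Levels near 3 counts, 0.146 to 0.501 CPM, carry little information.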
